A study of Homo sapiens with 9 samples.

Results

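The miR-15/16 family, with miR-195 and miR-497, was followed through 6 rows of a table of 1485 human miRNA hairpins: hsa-mir-15a and hsa-mir-16-1, which lie side by side in the gene DLEU2, hsa-mir-15b and hsa-mir-16-2, which lie side by side in an intron of SMC4, and hsa-mir-195 and hsa-mir-497, which lie side by side in MIR497HG. The 6 rows were taken by name, and all 6 passed the filter on low counts, as did 773 of the 1485 hairpins. The 9 libraries come from 2 human cell lines. HEK293E, a line descended from HEK293 embryonic kidney cells, received the control siRNAs siGFP or siControl, or siERH-3, each in replicates 1 and 2, or siERH-5 in replicate 2 only. These cells were transfected on days 0 and 3 and harvested on day 5. K562, a leukaemia line with erythroid features, received siGFP or siERH-5 in 1 library each and was harvested 4 days after transfection. The siERH siRNAs target ERH, a small conserved nuclear protein known to bind DGCR8, the RNA-binding partner of the nuclease DROSHA. No genotype, allele or further treatment is given for any group, and the labels do not say whether replicates came from separate cultures, so p-values measure the spread between these libraries. ERH mRNA was not measured, so the knockdown was not checked here.

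A miRNA is cut out of a long primary transcript in 2 steps: DROSHA with DGCR8 releases the hairpin in the nucleus, and DICER then frees a short duplex, 1 strand of which usually guides Argonaute to mRNAs. The seed, bases 2 to 8 of the mature miRNA, carries most of the target recognition, so miRNAs with the same seed are grouped as a family. The miR-15/16 family is known as a brake on the cell cycle, with cyclins and the survival factor BCL2 among its best-known targets, and the DLEU2 locus is often deleted in chronic lymphocytic leukaemia. Hairpins on 1 primary transcript are made together, and mir-15a is known as a hairpin whose cutting by DROSHA is helped by its neighbour mir-16-1.

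The mature sequences from the 5′ arms show what the members share and how they can be told apart. They are given 5′ to 3′ from RefSeq (GRCh38.p14), with the seed in capitals, and RefSeq entries matched all 6 members.
hsa-miR-15a-5p: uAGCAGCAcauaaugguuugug
hsa-miR-15b-5p: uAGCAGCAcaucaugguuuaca
hsa-miR-16-5p: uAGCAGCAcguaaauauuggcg
hsa-miR-195-5p: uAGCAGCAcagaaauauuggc
hsa-miR-497-5p: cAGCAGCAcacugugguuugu
All 5 carry the seed AGCAGCA, which 7 of the 2370 mature miRNA names in the RefSeq table carry, the others being hsa-miR-424-5p and hsa-miR-6838-5p. Counted from the 5′ end of hsa-miR-15a-5p, hsa-miR-15b-5p differs by A12C, G20A, U21C and G22A. Counted from the 5′ end of hsa-miR-16-5p, hsa-miR-195-5p differs by G10A and U11G over the 21 positions they have in common. hsa-miR-497-5p differs from hsa-miR-15a-5p by U1C, U11C, A12U and A13G.

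hsa-miR-16-5p is made by both hsa-mir-16-1 and hsa-mir-16-2, so reads of this arm fit both rows. The 3′ arms, given in the same way, are the mature sequences in which the copies differ.
hsa-miR-16-1-3p: cCAGUAUUaacugugcugcuga
hsa-miR-16-2-3p: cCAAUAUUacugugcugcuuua
The table counts hairpins and does not separate the arms, so the mir-16 rows are nearly the same measurement, and sums below use only hsa-mir-16-1.

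The hairpins of the 2 pairs on which the results turn are given with the 5′-arm miRNA in capitals. hsa-mir-15a lies at chr13:50049119-50049201 on the minus strand, overlapping an exon of the antisense RNA gene DLEU2, with hsa-mir-16-1 in a DLEU2 intron at chr13:50048973-50049061. Only 57 bases separate them. hsa-mir-15b at chr3:160404588-160404685 and hsa-mir-16-2 at chr3:160404745-160404825 lie on the plus strand in an SMC4 intron, 59 bases apart.
hsa-mir-15a: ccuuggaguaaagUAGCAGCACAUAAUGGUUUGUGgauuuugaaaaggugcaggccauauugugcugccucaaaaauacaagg
hsa-mir-16-1: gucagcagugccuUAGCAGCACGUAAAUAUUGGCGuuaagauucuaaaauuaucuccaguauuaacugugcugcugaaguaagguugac
hsa-mir-15b: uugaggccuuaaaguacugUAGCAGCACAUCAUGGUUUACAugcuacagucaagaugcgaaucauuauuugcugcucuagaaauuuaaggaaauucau
hsa-mir-16-2: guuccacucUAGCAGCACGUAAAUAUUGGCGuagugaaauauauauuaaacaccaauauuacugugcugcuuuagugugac
In both pairs the mir-15 hairpin is the upstream member. The third pair is spaced more widely: hsa-mir-497 (chr17:7017911-7018022) and hsa-mir-195 (chr17:7017615-7017701) lie 209 bases apart on the minus strand, both overlapping exons of MIR497HG, and there hsa-mir-497 is upstream. The predicted folding energy per nucleotide was -0.367 kcal/mol for hsa-mir-15a and -0.299 kcal/mol for hsa-mir-15b, against -0.416 for hsa-mir-16-1, -0.364 for hsa-mir-16-2, -0.532 for hsa-mir-195 and -0.492 for hsa-mir-497. Over the 772 tested hairpins with a sequence the median was -0.474, and 15.0% of them folded less stably per nucleotide than hsa-mir-15a and 4.4% less stably than hsa-mir-15b. The pair hsa-mir-195 and hsa-mir-497 also stood apart in GC content, at 56.3% and 67.0%, against 36.7% to 42.2% for the other 4 hairpins.

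The libraries held 2609929 to 3320017 counts. The erythroid hairpins hsa-mir-144, hsa-mir-451a, hsa-mir-486-1 and hsa-mir-486-2 summed to 185019 and 216099 counts in K562 and to 4827 to 9191 in HEK293E. The hsa-mir-486 rows were nearly equal in every library, so these sums can hold the same reads in both rows. hsa-mir-144 alone had 20669 and 35249 counts in K562 and 49 to 87 in HEK293E. hsa-mir-451a alone had 60425 and 41320 counts in K562 and 51 to 105 in HEK293E, so K562 carried its defining markers. Across all hairpins, edgeR's quasi-likelihood test at an adjusted p-value under 0.05 called 16.2% lower and 23.8% higher with siERH in HEK293E. TMM, the scaling of libraries used, assumes that most hairpins keep their share. All levels are shares of the sequenced miRNA, so less of a miRNA per cell cannot be told apart from fewer cells that make it.

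The makeup of the family, which needs no scaling between libraries, differed between siERH and control; these shares are descriptions and were not tested. hsa-mir-15a made up 31.3 ± 3.10% (SD, n = 4) of the 5 rows' counts in HEK293E control libraries and 15.9 ± 0.20% (SD, n = 3) in siERH libraries. Its share was 35.1% and 32.2% in the replicate 1 controls, 30.3% and 27.8% in the replicate 2 controls, and 16.1%, 15.7% and 15.8% in the siERH libraries. The share of hsa-mir-16-1 went the other way, from 47.9 ± 0.877% (SD, n = 4) to 64.1 ± 1.79% (SD, n = 3). The shares sum to a fixed whole, so a smaller share of hsa-mir-15a raises those of other rows. The level of hsa-mir-16-1, given below, did not pass the threshold. The control shares of hsa-mir-15a were spread more widely than those of the 3 siERH libraries, and the groups did not overlap. hsa-mir-15b held 17.3 ± 2.75% (SD, n = 4) and 15.1 ± 1.74% (SD, n = 3), with overlapping groups. The minor members hsa-mir-195 and hsa-mir-497 held 1.25 ± 0.507% and 2.24 ± 0.247% in control and 2.26 ± 0.189% and 2.67 ± 0.261% in siERH libraries. The groups of hsa-mir-195 did not overlap in share, at 0.694% to 1.85% in control and 2.10% to 2.47% in siERH libraries, and those of hsa-mir-497 did. The groups of hsa-mir-195 did overlap in level, as given below. Separation was common in these data: the levels of 44.6% of the 773 hairpins tested did not overlap between the arms. No such background was computed for the shares. The family as a whole took 1.98% to 3.39% of all counts in control and 2.29% to 2.65% in siERH libraries, so the groups overlapped in the total.

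**Figure D1:**
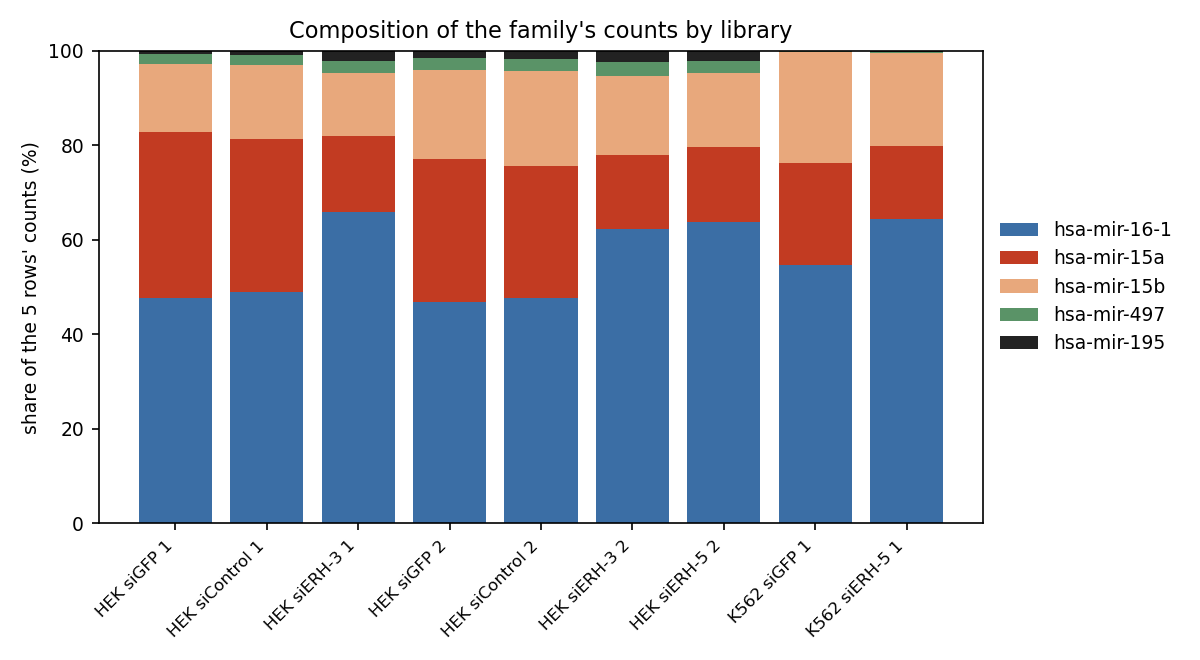
Share (%) of each of 5 rows in their summed counts, as stacked bars, for the 7 HEK293E and 2 K562 libraries; hsa-mir-16-2 is left out because it shares reads with hsa-mir-16-1. The hsa-mir-16-1 segment spans 46.9% to 49.0% in HEK293E controls and 62.4% to 65.9% in siERH libraries.

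hsa-mir-15a, the upstream hairpin in DLEU2, had 6460 and 8115 CPM (counts per 1000000 on the TMM scale) in the replicate 1 controls siGFP and siControl, and 10155 and 10977 CPM in the replicate 2 controls. With siERH-3 it had 3378 and 3784 CPM in replicates 1 and 2, and with siERH-5 3877 CPM. All 3 siERH libraries lay below all 4 controls, as a separation of either sign did for 44.6% of the 773 hairpins tested. hsa-mir-15a fell, with a log2 fold change of -1.28 ± 0.20 (SE; adjusted p = 0.000768, edgeR), and it was the only 1 of the 6 members that passed the threshold, against 16.2% of all hairpins lower. The median log2 fold change was -0.0055 over the 6 members and -0.0103 over all 773. Within replicates hsa-mir-15a was lower by a log2 ratio of -1.10 in replicate 1, with 1 siERH library, and of -1.46 in replicate 2.

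hsa-mir-15b, the upstream hairpin in SMC4, differed more between the controls of the replicates than between siERH and control libraries. Its controls had 2625 and 3980 CPM in replicate 1 and 6336 and 8001 CPM in replicate 2. The siERH libraries had 2775 CPM in replicate 1, between the controls of that replicate, and 3999 and 3831 CPM in replicate 2, below both. Over all libraries the groups overlapped and the log2 fold change was -0.57 ± 0.33 (SE; adjusted p = 0.196, edgeR). With the replicate number as a block, which the labels' experimental groups support, hsa-mir-15b fell by 0.62 on the log2 scale (edgeR adjusted p = 0.0103), where 20.6% of hairpins were lower. It also fell within replicate 2 alone, by -0.83 (edgeR adjusted p = 0.000301; 12.9% of hairpins lower), and once a GC trend was taken out, by -0.96 (edgeR adjusted p = 0.0228; 15.4% lower). In replicate 1 the log2 ratio was only -0.22, with 1 siERH library. The fitted value was nearer 0 and did not pass on library totals (-0.34, edgeR adjusted p = 0.381), with limma (-0.27, adjusted p = 0.499) and without siControl replicate 2 (-0.30, edgeR adjusted p = 0.444).

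The downstream mir-16 hairpins, which give the most abundant miRNA of the family, did not pass the threshold. hsa-mir-16-1 had 8792 and 12344 CPM in the replicate 1 controls and 15737 and 18878 CPM in those of replicate 2. It had 13856, 15056 and 15625 CPM in the siERH libraries, inside the control range. Its log2 fold change was 0.09 ± 0.23 (SE; adjusted p = 0.77, edgeR), and that of hsa-mir-16-2 was 0.14 ± 0.23 (SE; adjusted p = 0.661, edgeR). Neither direction was stable. Within replicate 1, with 1 siERH library, the log2 ratios of hsa-mir-16-1 and hsa-mir-16-2 were 0.41 and 0.46, within replicate 2 they were -0.17 and -0.12, and with the GC trend removed the fitted values were -0.20 and -0.26.

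hsa-mir-195 and hsa-mir-497 were the rarest members. hsa-mir-195 had 128 and 253 CPM in the replicate 1 controls, 491 and 730 CPM in the replicate 2 controls, and 441, 596 and 543 CPM with siERH. Its control libraries thus spanned more than its siERH libraries, and the log2 fold change of 0.40 ± 0.45 (SE; adjusted p = 0.514, edgeR) did not pass the threshold. That value was 0.10 without siGFP replicate 1, 0.85 without siControl replicate 2 and -0.05 in replicate 2 alone. hsa-mir-497 had 394 and 491 CPM, then 845 and 928 CPM, in the controls of replicates 1 and 2, and 564, 706 and 588 CPM with siERH. Its log2 fold change was -0.10 ± 0.28 (SE; adjusted p = 0.795, edgeR). On library totals in place of TMM, which moved the median of all hairpins by 0.20, hsa-mir-497 was at 0.12 and so on the other side of 0.

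**Figure D2:**
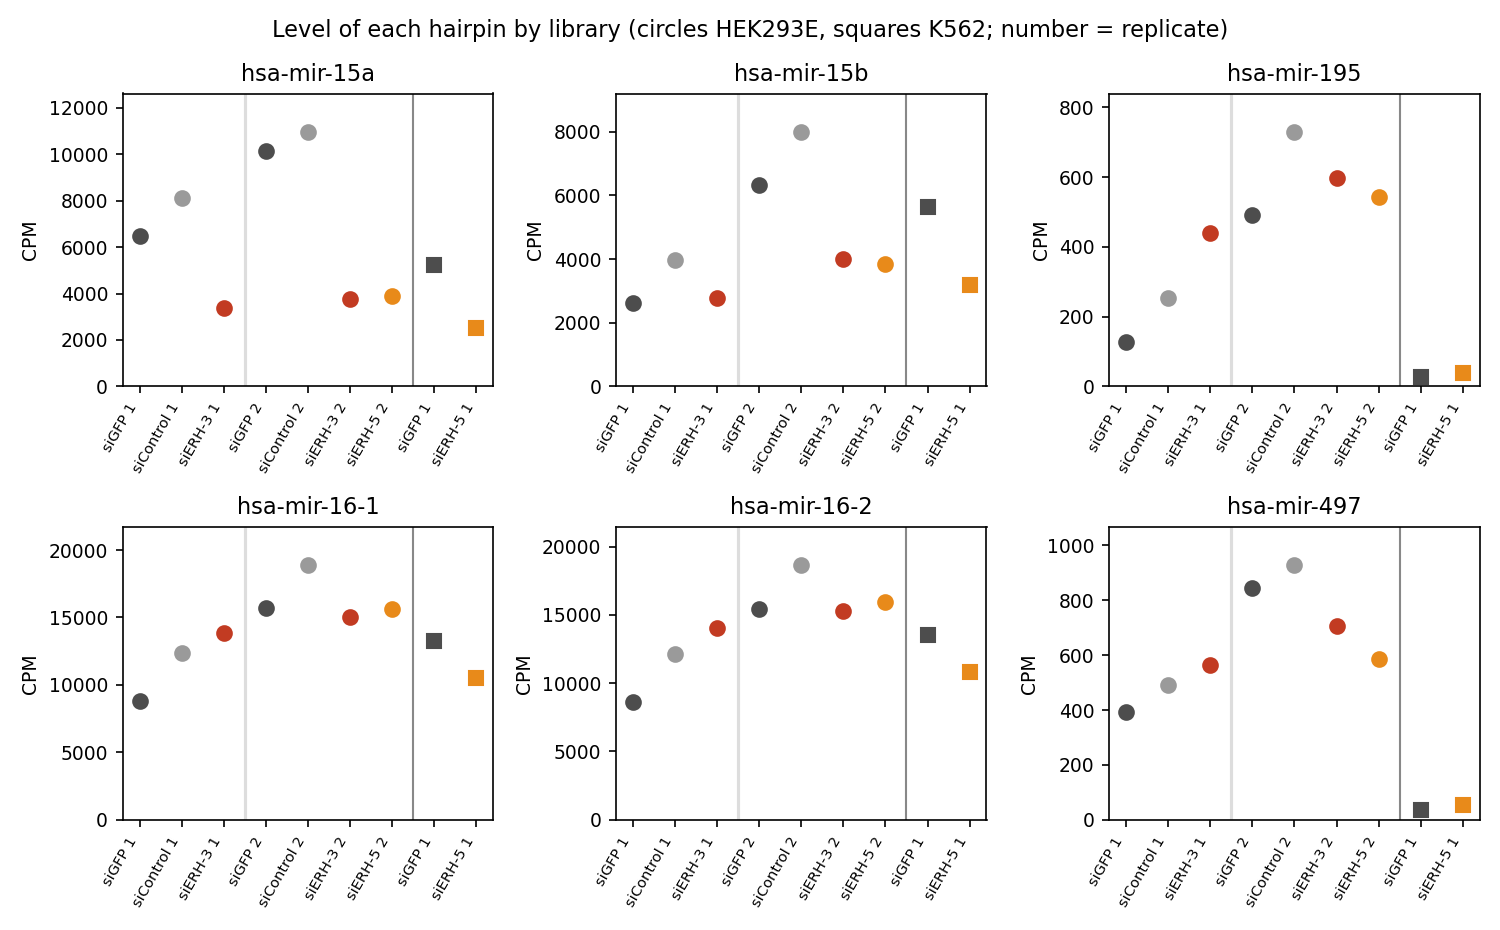
Level of each member (CPM, linear axes from 0) in each library; circles are HEK293E, squares K562, and the number after the siRNA is the replicate. The hsa-mir-15a panel shows 3378 to 3877 CPM with siERH against 6460 to 10977 CPM in HEK293E controls, while the other 5 panels overlap.

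The control libraries also differed from each other. All 6 members, with the mir-16 rows nearly the same measurement, were higher in siControl than in siGFP in both replicates. How many of all hairpins were so was not counted. The median log2 fold change was 0.36 over the members and 0.03 over all 730 hairpins. edgeR called none of the members at an adjusted p of 0.959 each, and 0 of all 730 hairpins (24 had an unadjusted p under 0.05, and DESeq2 called 2 lower and 2 higher). With the replicate block, 4 of the 6 were higher in siControl, against 9.86% of all hairpins: hsa-mir-195 by 0.76, hsa-mir-15b by 0.46, hsa-mir-16-2 by 0.37 and hsa-mir-16-1 by 0.37 (edgeR adjusted p = 1.14e-06, 0.000405, 0.00603 and 0.00695). The mir-16 rows are nearly the same measurement, so they do not count separately here. hsa-mir-15a differed by 0.21 (edgeR adjusted p = 0.158) and hsa-mir-497 by 0.22 (edgeR adjusted p = 0.217). A blocked difference of 0.46 between control siRNAs thus stands beside the blocked siERH difference of -0.62 of hsa-mir-15b.

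Ratios within a library need no scaling between libraries. Each mir-16 row also holds reads that the other copy can give, so a mir-15 over mir-16 ratio sets 1 hairpin against reads of both loci. Exact permutation tests, two-sided over 35 splits of the 7 HEK293E libraries, cannot go below 0.0286, and p-values were adjusted over 7 ratios. For hsa-mir-15a over hsa-mir-16-1, the linear ratio was 0.735 and 0.657 in the replicate 1 controls siGFP and siControl, 0.645 and 0.581 in those of replicate 2, and 0.244, 0.251 and 0.248 in the siERH libraries. The siERH ratios were nearly equal in both replicates and with both siRNAs. The log2 difference was -1.40, with an exact permutation p = 0.0286 and an adjusted p = 0.05, which is at the threshold and not under it.

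The ratio of the SMC4 pair was lower too, by less. hsa-mir-15b over hsa-mir-16-2 was 0.304 and 0.327 in the replicate 1 controls, 0.410 and 0.429 in the replicate 2 controls, 0.197 in the replicate 1 siERH-3 library, and 0.262 and 0.240 with siERH-3 and siERH-5 in replicate 2. No siERH library reached the lowest control, although the level of hsa-mir-15b alone overlapped. On the log2 scale controls averaged -1.46 ± 0.24 (SD, n = 4) and siERH libraries -2.11 ± 0.21 (SD, n = 3), which differ by -0.65 (exact permutation p = 0.0286, adjusted p = 0.05). Replicate 1, with 1 siERH library, gave -0.68 and replicate 2 gave -0.74. The control siRNAs differed by 0.11 and 0.07 in this ratio in replicates 1 and 2.

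In the chromosome 17 pair the groups overlapped. hsa-mir-195 over hsa-mir-497, which is downstream over upstream, was 0.324 and 0.514 in the replicate 1 controls, 0.581 and 0.787 in the replicate 2 controls, and 0.782, 0.844 and 0.924 in the siERH libraries. The overlap came through siControl of replicate 2. The log2 difference was 0.69 (exact permutation p = 0.0857, adjusted p = 0.0857), and the reverse, upstream over downstream as in the other pairs, was -0.69, with 0.94 in replicate 1, where there is 1 siERH library, and 0.39 in replicate 2. Controls of replicate 2 exceeded those of replicate 1 by 0.73, and siControl exceeded siGFP by 0.67 and 0.44 within replicates, so controls differed among themselves by about as much.

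**Figure D3:**
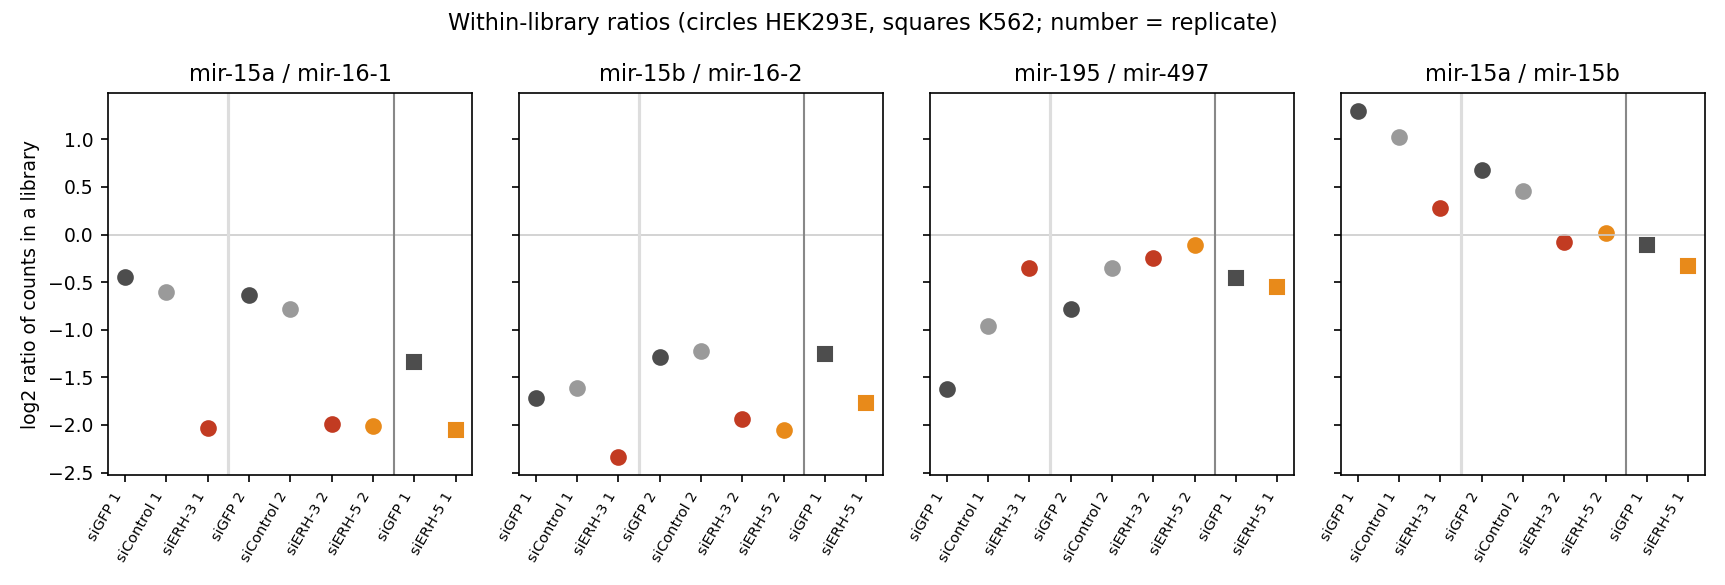
log2 ratio of counts for the 3 neighbouring pairs and for mir-15a over mir-15b in each library, with circles for HEK293E and squares for K562. The siERH libraries sit near -2.01 for mir-15a over mir-16-1 in HEK293E, and both mir-15 over mir-16 ratios are lower with siERH than with siGFP in K562.

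The pairs were then compared with each other. hsa-mir-15a over hsa-mir-15b does not involve the shared mir-16 reads. It was 2.46 and 2.04 in the replicate 1 controls and 1.60 and 1.37 in the replicate 2 controls, and 1.22, 0.946 and 1.01 with siERH. In HEK293E controls hsa-mir-15a thus had more counts than hsa-mir-15b in all 4 libraries, and with siERH-3 in replicate 2 it had fewer. The log2 difference was -0.79 (exact permutation p = 0.0571, adjusted p = 0.0667), with -0.88 in replicate 1 (1 siERH library) and -0.60 in replicate 2. The siERH difference of the DLEU2 pair less that of the SMC4 pair was -0.75 (exact permutation p = 0.0571, adjusted p = 0.0667). The groups of both measures did not overlap, yet another split of the libraries gave as large a difference. With the mir-16 rows summed it was -0.79, the value of hsa-mir-15a over hsa-mir-15b itself, so it is no separate result. Against hsa-mir-497 over hsa-mir-195, the same orientation and a contrast chosen after the data were seen, the DLEU2 pair differed by -0.71 (exact permutation p = 0.0571, adjusted p = 0.08) and the SMC4 pair by 0.04 (exact permutation p = 0.943, adjusted p = 0.943). Against hsa-mir-195 over hsa-mir-497, the opposite orientation, the values were -2.09 and -1.34 (exact permutation p = 0.0286 and adjusted p = 0.05 for each), so these contrasts depend on the orientation. With the replicate block, where 18 splits allow no p under 0.0556, the DLEU2 pair, the SMC4 pair and hsa-mir-15a over hsa-mir-15b were each at that smallest p (adjusted p = 0.0648), and hsa-mir-195 over hsa-mir-497 was at 0.111.

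These differences were set beside those of other neighbours. Of 103 pairs of consecutive hairpins on 1 strand within 10000 bases, each hairpin with a mean of at least 10 counts, 35% had ratios that did not overlap between siERH and control libraries. The size of the log2 difference had a median of 0.42, and 20 pairs differed by at least 2-fold. Copy rows recur among these pairs, such as hsa-mir-3179 over hsa-mir-3180 at 1.51, 1.52 and 1.52. The counts and ranks are therefore not over separate measurements. With pairs that hold a multi-copy hairpin left out, which drops both mir-15 over mir-16 pairs, 34.4% did not overlap. hsa-mir-15a over hsa-mir-16-1 ranked 15th by size and 6th from the lowest value of upstream over downstream, and hsa-mir-15b over hsa-mir-16-2 ranked 33rd by size. Of the 36 pairs without overlap, 15 had the upstream hairpin relatively lower, as in both mir-15 over mir-16 pairs. The lowest values were those of hsa-mir-4421 over hsa-mir-6500 at -4.59, hsa-mir-3677 over hsa-mir-940 at -4.15 and hsa-mir-376c over hsa-mir-544a at -3.30. The highest values were those of hsa-mir-331 over hsa-mir-3685 at 3.48, hsa-mir-940 over hsa-mir-4717 at 2.43 and hsa-mir-194-2 over hsa-mir-192 at 2.30. The rarer hairpin averaged 13.9 counts in the hsa-mir-376c pair, 10.6 in the hsa-mir-331 pair and 11 in the hsa-mir-4717 pair, near the filter. In K562, with 1 library a side, the hsa-mir-376c pair changed by 2.83 and the hsa-mir-331 pair by -0.90, the other way. The remaining pairs named here as lowest or highest kept their sign there. The K562 changes were -1.58 for hsa-mir-4421 over hsa-mir-6500 and -3.16 for hsa-mir-3677 over hsa-mir-940. They were 1.35 for hsa-mir-940 over hsa-mir-4717 and 1.87 for hsa-mir-194-2 over hsa-mir-192. The K562 counts behind them were not weighed, and the hsa-mir-4421 value in particular can come from very few reads.

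**Figure D4:**
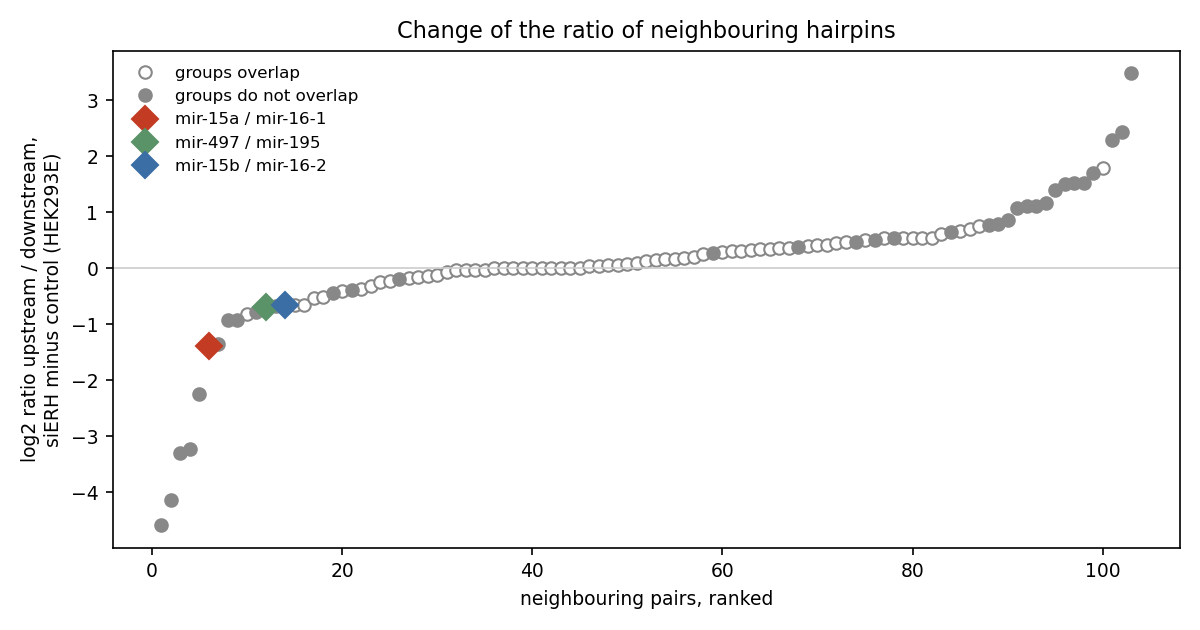
Change of the log2 ratio of upstream over downstream hairpin (siERH minus control, HEK293E) for 103 neighbouring pairs, ranked from the lowest; filled circles have groups that do not overlap. The DLEU2 pair lies at -1.40, the SMC4 pair at -0.65 and mir-497 over mir-195 at -0.69, with 36 pairs filled.

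The mir-16 rows were also set against each other. They can differ by reads that fit 1 copy, such as those of the 3′ arms printed above, and how reads that fit both copies were counted is not given in the sources used here. hsa-mir-16-1 had 516 and 505 counts more than hsa-mir-16-2 in the replicate 1 controls siGFP and siControl, and 681 and 643 more in those of replicate 2. In the siERH libraries hsa-mir-16-2 had the higher count, by 699 and 669 with siERH-3 and by 1139 with siERH-5. The sign of the difference thus separated the HEK293E arms. The difference came to 1.29% to 1.82% of the hsa-mir-16-1 count in the controls and to 1.36% to 2.07% in the siERH libraries, in the other direction. This measure was chosen after its values were seen and was not tested. The log2 ratio of hsa-mir-16-1 over hsa-mir-16-2 differed by -0.046 between the arms. It was set beside 118 pairs of rows whose names differ only in the copy number. These pairs were chosen on the same counts, with HEK293E totals at a ratio of at least 0.8, and their sequences were not compared. Of them, 5.08% had ratios that did not overlap, and the median size of the change was 0.0051. That median is lowered by pairs with a change of exactly 0. The mir-16 pair ranked 10th by size. Only the net difference is seen, so fewer reads given to hsa-mir-16-1 and more given to hsa-mir-16-2 cannot be told apart. In K562 hsa-mir-16-2 was higher in both libraries, by 694 counts with siGFP and 1171 with siERH-5.

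**Figure D5:**
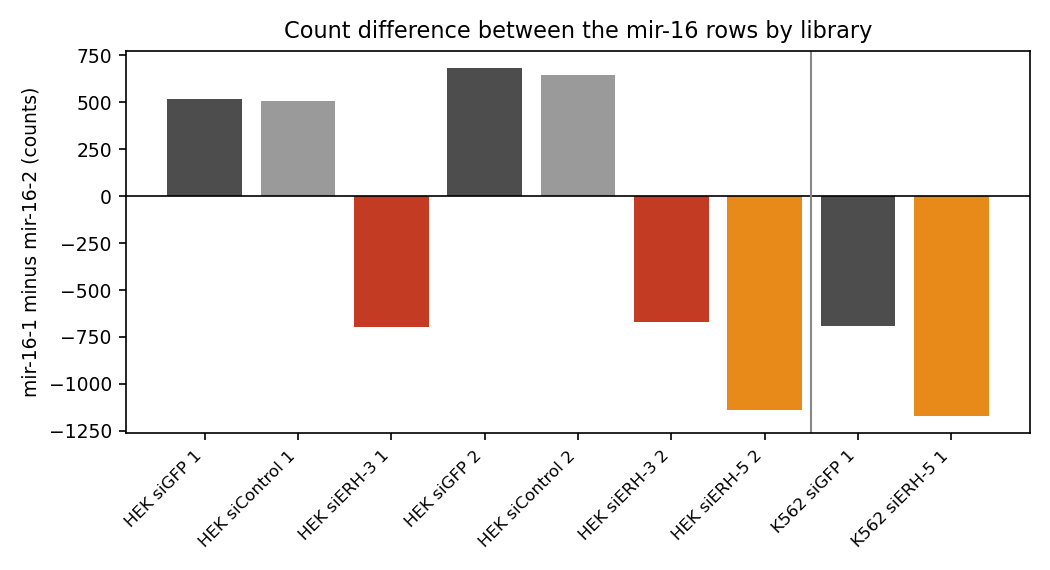
Count of hsa-mir-16-1 minus that of hsa-mir-16-2 in each library, as bars from 0. The 4 HEK293E control bars lie between 505 and 681 above 0, and the 3 HEK293E siERH bars and both K562 bars lie below 0.

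K562 has 1 library per siRNA, so its values have no replicate check, and intervals cover counting error only. hsa-mir-15a had 5218 CPM with siGFP and 2528 CPM with siERH-5, a log2 ratio of -1.05, where 6.81% of 646 hairpins were lower by at least 2-fold. hsa-mir-15b had 5650 and 3180 CPM (log2 ratio -0.83), hsa-mir-16-1 13229 and 10522 CPM (-0.33), and hsa-mir-16-2 13522 and 10842 CPM (-0.32). These 4 lay below 0, as did 44% of all hairpins. On library totals, the log2 ratios of hsa-mir-15a, hsa-mir-15b and hsa-mir-16-1 were -0.76, -0.55 and -0.05. Few reads came from the chromosome 17 pair: hsa-mir-195 had 61 and 137 counts and hsa-mir-497 84 and 201 counts, with log2 ratios of 0.52 (counting interval 0.09 to 0.96) and 0.62 (0.25 to 0.98).

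The ratios in K562 had the same direction as in HEK293E for both mir-15 over mir-16 pairs. hsa-mir-15a over hsa-mir-16-1 was 0.394 with siGFP and 0.240 with siERH-5, a log2 change of -0.72 (counting interval -0.76 to -0.67), the latter ratio beside the 0.244 to 0.251 of the HEK293E siERH libraries. hsa-mir-15b over hsa-mir-16-2 was 0.418 and 0.293, a log2 change of -0.51 (counting interval -0.55 to -0.47), and hsa-mir-15b held 29.5% (95% Wilson interval 29.1% to 29.9%) and 22.7% of that pair's counts. hsa-mir-15a over hsa-mir-15b changed by -0.22 (-0.27 to -0.16), less than the -0.79 in HEK293E. The HEK293E value pools siERH-3 and siERH-5 against siGFP and siControl, and its transfection schedule and harvest day also differ from those of K562. In HEK293E, siERH-5 was at 0.02 on the log2 scale, beside 0.68 and 0.46 for siGFP and siControl of its replicate. The siRNAs, controls and schedule thus differ along with the cell line, and the difference was not tested. hsa-mir-195 over hsa-mir-497 was 0.728 and 0.682, a change of -0.09 (-0.66 to 0.48), which was not detectable at these counts. In K562, the family share of hsa-mir-15a was 21.6% for siGFP and 15.5% for siERH-5, and that of hsa-mir-16-1 was 54.8% and 64.5%. With siGFP, hsa-mir-195 and hsa-mir-497 each made up under 0.2% of the family in K562 (0.107% and 0.147%) and 0.694% to 1.46% and 2.14% to 2.52% in HEK293E. hsa-mir-15b had more counts than hsa-mir-15a in both K562 libraries, as in HEK293E only with siERH-3 in replicate 2.

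Of 4 further hairpins listed as relatives by their seed, 3 were measured. hsa-mir-424, which carries the seed AGCAGCA, had 1133 and 1383 CPM in the replicate 1 controls, 2665 and 2989 CPM in those of replicate 2, and 1431, 2234 and 2323 CPM with siERH, a log2 fold change of -0.03 ± 0.33 (SE; adjusted p = 0.944, edgeR). Its neighbour hsa-mir-503, with the seed AGCAGCG, was at -0.29 ± 0.21 (SE; adjusted p = 0.309, edgeR). Neither of the 2 that passed the count filter was called. hsa-mir-6838 had 5 to 14 counts per HEK293E library and was below that filter, and hsa-mir-646 was not analysed here.

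By Pearson's r of log2(CPM + 1) over the 7 HEK293E libraries, among the 291 hairpins that averaged 100 CPM or more, the levels most like those of hsa-mir-15a were of hsa-mir-181c (r = 0.998), hsa-mir-191 (0.995), hsa-mir-29c (0.992), hsa-mir-19a (0.989) and hsa-mir-27b (0.988). The 7 libraries fall into siERH and control and into 2 replicates, and all hairpins share their scaling, so r describes these libraries only. Of the 5, 4 passed the threshold, with log2 fold changes of -1.11 for hsa-mir-181c, -1.06 for hsa-mir-29c, -0.85 for hsa-mir-19a and -0.57 for hsa-mir-27b (edgeR adjusted p = 0.00108, 0.00114, 0.00162 and 0.0128), and hsa-mir-191 was at -0.36 (edgeR adjusted p = 0.055). The 2 hairpins most like each other member were hsa-mir-342 and hsa-mir-301b for hsa-mir-15b (0.970 each), hsa-mir-30c-1 and hsa-mir-30c-2 for hsa-mir-16-1 (0.989 and 0.988), hsa-mir-23a and hsa-mir-26b for hsa-mir-195 (0.994 and 0.988), and hsa-mir-23b and hsa-mir-17 for hsa-mir-497 (0.991 and 0.978). None of these 8 passed the threshold. Across all hairpins tested, 16.2% were lower and 23.8% higher with siERH. All these hairpins were picked by likeness to a member over the same 7 libraries. Their calls, or lack of calls, therefore largely follow from the choice and give no separate support. Among the members, r was 0.974 for hsa-mir-195 with hsa-mir-16-1 and 0.131 for hsa-mir-15a with its own neighbour hsa-mir-16-1. The hsa-mir-16-1 row also counts reads that hsa-mir-16-2 can give (r = 0.998 between the rows), so the latter value is not of the DLEU2 hairpins alone.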

How the data were processed

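Small RNAs of 18 to 30 nt were sequenced from 10 μg of total RNA per library, per the labels' protocols. The authors deposited raw counts per hairpin, with blank cells read here as 0, and RPM values, which recomputation showed to be each count plus 1, scaled to 1000000 per library (largest relative difference 1.14e-09). The submitters' processing notes name cutadapt, Bowtie2, bedtools and hg38; the counting of reads that fit several hairpins is not given in the sources used here. Spike-ins were not used here.

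The members and lists were chosen with earlier results of these data known. Hairpins named are the members, 4 seed relatives, the hairpins most like each member by Pearson's r, and the 3 largest falls and rises among neighbouring pairs. Hairpins averaging 10 counts or more were fitted with edgeR 4.0.16 (TMM, quasi-likelihood, Benjamini-Hochberg over all hairpins, R 4.3.3); SE is the log2 fold change over the square root of F. Ratios used counts plus 0.5, and K562 levels CPM plus 1. The GC trend was a loess per library (span 0.7). Alternatives were DESeq2 1.42.0, limma 3.58.1, other filters and scalings, a replicate block, and each library left out. Replicate numbers match the labels' experimental groups, and deviations of same-numbered libraries correlated across 773 hairpins (r = 0.48 to 0.692). The replicate number was therefore used as a block, but only in the alternatives. The main fit and the main permutation tests had no block. Tested on simulated data of 773 hairpins for siERH against control, edgeR called 144 of 200 changed 2-fold, 8 unchanged ones, and 0 when nothing changed. The simulated libraries were drawn independently, without the correlation of same-numbered libraries, so these rates need not hold for the unblocked fit here. Annotation was GENCODE 29 (GRCh38, 1480 hairpins matched), folding RNAfold 2.7.2, with Python 3.11.15, scipy 1.17.1 and matplotlib 3.10.9. The floor of 3 counts is 0.904 to 1.15 RPM, and intervals cover counting error only.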

Additional observations from a re-analysis of the deposited data

Results flagged for a closer look

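The ratio of hsa-mir-195 to hsa-mir-497 differed in sign between the cell lines, although neither line's difference passed a test or its counting error. On the log2 scale, each HEK293E siERH library was above the mean of its own replicate's controls, by 0.320 to 0.937, while K562 siERH-5 was below siGFP by a change of -0.0930. The difference between the lines was not tested, and the siRNAs, controls and schedule differ along with the line. In K562 hsa-mir-195 had 61 and 137 counts with siGFP and siERH-5 and hsa-mir-497 84 and 201, and the counting interval of the change, -0.66 to 0.48, includes 0. In 15 sets of 4 control values, for the members, hsa-mir-424, hsa-mir-503 and the ratios, Dixon's test picked out no library, which says little, since the controls fall into 2 replicates of 2.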

How the results depend on the processing

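Alternatives changed a single choice, except that the replicate block was also joined with GC removal, limma replaced both the test and the TMM scaling, and DESeq2 brought its own size factors. hsa-mir-15a stayed lower and past the threshold in all 18 alternatives (log2 fold change -1.54 to -1.06, largest adjusted p = 0.00689 over edgeR, DESeq2 and limma). hsa-mir-15b was below 0 in all 18 (-1.02 to -0.27, adjusted p = 0.000285 to 0.504 over the same tools) and passed in 5: with the GC trend removed (-0.96), within replicate 2 (-0.83), with the replicate block (-0.62), with both block and GC removal (-1.02), and without siGFP replicate 1 (-0.79); leaving out each library gave -0.79 to -0.30. The other 4 members passed in none, and hsa-mir-16-1 was below 0 in 5 of 17 and hsa-mir-497 in 10 of 18. The 4 pair ratios (16, 16, 14 and 14 alternatives) kept their direction, and none came under the adjusted threshold, which the splits left after removing a library do not allow; hsa-mir-15a over hsa-mir-16-1 was -1.51 in replicate 1 alone, hsa-mir-15b over hsa-mir-16-2 ranged from -0.74 to -0.54 and hsa-mir-195 over hsa-mir-497 from 0.39 to 0.97. The contrast of the SMC4 and chromosome 17 pairs, -1.34, was 0.04 with the latter turned to upstream over downstream, an alternative chosen after seeing the data. The replicate block changed the call of no other member in the siERH comparison. Over all hairpins (125 lower, 184 higher), library totals left 67 lower, limma 66 with a pseudocount of 1 RPM and 63 with 10 RPM, and a filter at 100 counts 63 lower and 82 higher; leaving out each library gave 76 to 130 lower. On library totals 24.0% of calls were lower, against 40.5%. For siControl against siGFP (0 and 0), DESeq2 and no filter each gave 2 lower and 2 higher, and the block 61 and 72. The cause was not tested.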
